A study of Mus musculus with 6 samples.

Results

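The clustered protocadherins are a family of neuronal cell adhesion genes arranged in 3 neighbouring clusters, alpha, beta and gamma, on mouse chromosome 18. Their members were taken as the protein-coding genes of that chromosome whose GENCODE symbols are Pcdha, Pcdhb or Pcdhg followed by the number of the variable gene or by a C-type number. All 58 members were present among the 55416 genes counted, 14 in the alpha, 22 in the beta and 22 in the gamma cluster. They lie on the plus strand between positions 37063237 and 37975014 of GRCm39.

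RNA-seq was performed on epiblast-like cells (EpiLCs), which model the formative pluripotent state, with 3 WT and 3 Oct6 KO libraries. WT cells were the parental line 46C, a mouse embryonic stem cell line in which the Sox1 gene drives GFP, and KO cells were a single CRISPR/Cas9 clone of it with a homozygous insertion of 1 nucleotide in Oct6 (Pou3f1). Both lines were brought from naive culture in 2i and LIF to EpiLCs over 48 h on fibronectin, in N2B27 medium with 1% KSR, a serum replacement, bFGF at 12 ng/ml and Activin A at 20 ng/ml. These are the units of the sample labels, and the series text gives both growth factors in µg/ml. Because the KO is 1 clone, its genotype and any other difference between that clone and its parent cannot be told apart.

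Clustered protocadherins are single-pass membrane proteins of the cadherin superfamily. Each neuron makes a few of them, and matching isoforms on apposed membranes bind each other, which lets a neuron tell its own neurites from those of its neighbours. In the alpha and gamma clusters every variable exon has its own promoter and codes for the extracellular part, the membrane-spanning segment and the start of the cytoplasmic tail. It is spliced to constant exons at the end of the cluster, which are shared by all genes of that cluster and code for the rest of the tail. Beta genes have no constant exons. Promoter choice depends on CTCF and cohesin, which bring a promoter to distant enhancers, and on DNA methylation, while the C-type genes are chosen less randomly than the others.

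Library totals ran from 10995505 to 14680930 counts, and the 58 genes held 1949 of the 77894167 counts of the 6 libraries, or 0.00250%. At these depths 3 counts were worth between 0.203 and 0.274 CPM (a count scaled by the depth of its library after TMM normalization) in a library, so that most members lay near the limit of what could be seen. Pou3f1 gave 161, 143 and 122 CPM in WT and 127, 141 and 128 CPM in KO (log2 fold change −0.10, adjusted p = 0.574), and a 1-nucleotide insertion that leaves the transcript counted does not allow the labels to be checked by this gene. Of the markers of the labelled cells, 3 pluripotent genes summed to between 1004 and 1097 CPM in WT and between 945 and 1034 CPM in KO. Tdgf1 was also listed and was not found. Most of this sum was Pou5f1 (898 ± 60.0 and 787 ± 36.8 CPM, log2 fold change −0.19, adjusted p = 0.187). Sox2 was called higher in KO (0.42, adjusted p = 0.0283). Formative genes summed to between 1722 and 1932 CPM in WT and between 1684 and 1871 CPM in KO. Most of the formative sum was Dnmt3b (1563 ± 126 and 1369 ± 105 CPM), and of the other formative markers Otx2 (log2 fold change 0.92, adjusted p = 0.00017) and Fgf5 (0.65, adjusted p = 0.000381) were higher in KO. The 6 naive markers summed to between 205 and 217 CPM in WT and to between 298 and 374 CPM in KO, with Nanog (0.75), Zfp42 (0.54) and Esrrb (1.39) called higher. With 3 pluripotent, 4 formative and 6 naive markers tested, these lists are too small to set against the 24.3% of all genes tested that were called.

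Expression of the clustered protocadherins in EpiLCs was almost entirely that of the gamma cluster, which held 95.2% of their counts. The gamma genes summed to 28.5, 25.9 and 27.7 CPM in the WT libraries and to 22.4, 17.4 and 20.9 CPM in the KO libraries. Every WT library was above every KO library, with means of 27.4 ± 1.33 and 20.2 ± 2.57 CPM (SD, n = 3), a ratio of 1.36. In bulk RNA, fewer cells with a transcript and less of it per cell cannot be told apart. All 22 gamma genes had a count in at least 1 library and 20 of them in all 6 libraries. By contrast, the alpha cluster held 52 counts in all and the beta cluster 42. Annotated gamma genes run from their own start to the end of the cluster, so a variable exon lies within the spans of genes upstream of it. The libraries were of total RNA, and reads of unspliced transcripts begun upstream were not told apart from those of the gene itself.

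Per kilobase of exon that the annotation gives to 1 gene alone, the gamma cluster stood at 0.407 CPM in WT and 0.300 CPM in KO. The alpha cluster stood at 0.0153 and 0.0237 CPM per kilobase, and the beta cluster at 0.00679 and 0.00484. For most alpha and gamma genes this length is in essence the variable exon, since reads on the shared constant exons cannot be given to a single gene. Pcdha4 is an exception, with only 494 unique bases among its 5768 exon bases. Among gamma genes the unique length ran from 1570 bases in Pcdhga4 to 4662 in Pcdhgc5, with 4657 in Pcdhgb5. Levels per kilobase thus rest on unlike lengths.

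**Figure D1:**
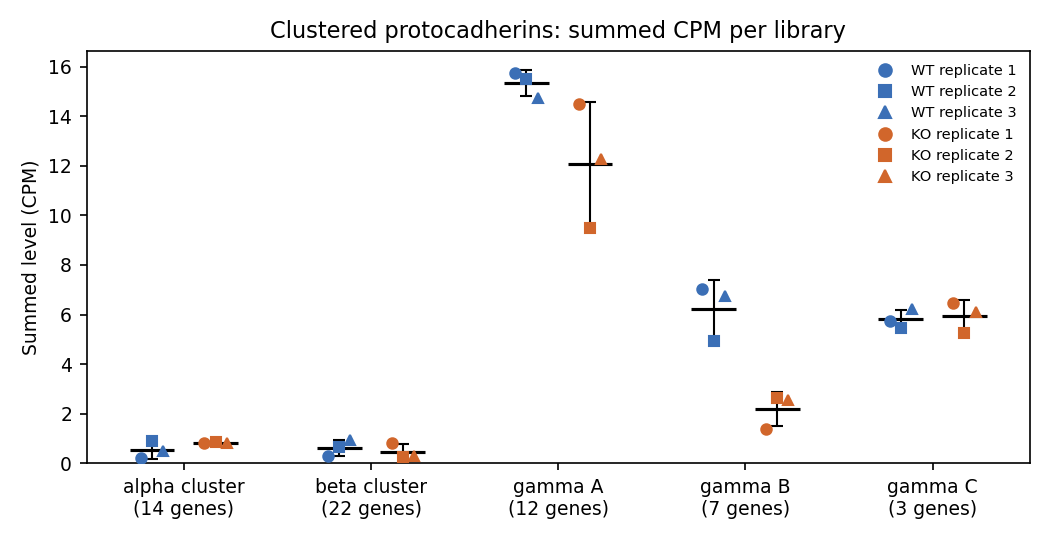
Summed level in CPM (vertical axis) of the alpha and beta clusters and of the gamma A, gamma B and gamma C genes, with 1 point per library, a bar at the mean and whiskers of 1 SD (n = 3). The alpha and beta sums stay below 1 CPM in every library, while the gamma B sums lie between 4.93 and 7.02 CPM in WT and between 1.38 and 2.62 CPM in KO.

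The gamma genes fall into A, B and C types by sequence, and the summed levels of the types differed in how WT and KO compared. The 7 gamma B genes summed to 7.02, 4.93 and 6.76 CPM in WT and to 1.38, 2.62 and 2.56 CPM in KO. Their groups did not overlap and the means, 6.24 ± 1.14 and 2.19 ± 0.701 CPM, differed by a ratio of 2.85. The 12 gamma A genes summed to 15.7, 15.5 and 14.7 CPM in WT and to 14.5, 9.49 and 12.3 CPM in KO, and the lowest WT library lay just above the highest KO library. The 3 gamma C genes gave 5.75, 5.48 and 6.22 CPM in WT and 6.48, 5.25 and 6.09 CPM in KO, and these groups overlapped. These sums are a description of the libraries and carry no test.

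Relative to the gamma cluster as a whole, gamma B genes made up 22.7% ± 3.17 of its counts in WT and 11.2% ± 4.57 in KO. The C-type share was 21.2% ± 1.15 in WT and 29.4% ± 0.675 in KO, and that of gamma A was 56.1% ± 3.42 and 59.4% ± 5.14. A share can rise in this way while the level in CPM of the same genes overlaps between groups, as it did for gamma C.

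KO and WT libraries were compared gene by gene with edgeR's quasi-likelihood test over all 15746 genes that passed a filter on low counts, with Benjamini-Hochberg adjustment over these and a threshold of 0.1. Only 10 members passed the filter, all of them gamma genes, and 48 were not tested. Of the 10, Pcdhgb5 and Pcdhga8 were lower in KO EpiLCs, while 12.5% of all genes tested were lower. The count for both directions, 2 of 10, can be set beside 24.3% of all genes tested. Both had a log2 fold change below −1, a size reached with a passing test by 6.21% of all genes tested. None was higher, against 11.8% of all genes, and none was higher at an unadjusted p below 0.05 or by DESeq2. The filter bears on this, because 3 of the 10, Pcdhgb5, Pcdhga8 and Pcdhgb8, reached its level of 0.757 CPM in the WT libraries and in no KO library. The median log2 fold change of the 10 was −0.25 beside 0.0014 for all genes tested. It includes these 3 genes, which passed through WT alone, and is no measure of a general lowering of the members.

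Pcdhgb5 codes for a B-type gamma protocadherin (ENSMUSG00000103749.2; transcription starts at position 37864019 of chromosome 18). It had 29, 23 and 29 counts in the WT libraries, or 2.16, 2.10 and 1.96 CPM, and 2, 4 and 3 counts in the KO libraries, or 0.162, 0.309 and 0.226 CPM. The WT libraries were close to each other and all were far above the KO libraries. Its log2 fold change was −3.10 ± 0.48 (SE; 95% interval −4.10 to −2.11; adjusted p = 0.000126). It kept an adjusted p below 0.1 in all 12 alternatives in which it could be tested, with log2 fold changes between −3.35 and −2.92.

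Pcdhga8, an A-type gene whose transcription starts at position 37858741 (ENSMUSG00000103897.2), had 23, 20 and 26 counts in WT, or 1.72, 1.83 and 1.76 CPM. In KO it had 9, 2 and 7 counts, or 0.729, 0.154 and 0.527 CPM, with KO replicate 2 the lowest and no overlap with WT. Its log2 fold change was −1.90 ± 0.47 (95% interval −2.89 to −0.90; adjusted p = 0.00771). It too passed in all 12 alternatives that tested it, between −2.34 and −1.48.

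These are neighbouring genes. Pcdhga8 and Pcdhgb5 are the 11th and 12th of the gamma cluster, with starts 5278 bases apart, and the gene before them, Pcdhgb4, starts 5327 bases upstream of Pcdhga8. Pcdhgb4, singled out after its values were seen, was below the filter. It had 21, 7 and 17 counts in WT and 2, 10 and 1 counts in KO, so that KO replicate 2 lay above WT replicate 2. Without the filter its log2 fold change was −1.73 ± 0.59 (adjusted p = 0.0368), and it was then called lower together with Pcdhgb5 and Pcdhga8, 3 of the 45 members with a count, beside 12.4% of all genes in that fit. DESeq2 gave it an adjusted p of 0.157. It was called lower in 3 of the 7 alternatives that tested it, among them the fit without KO replicate 2 (−3.17).

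Summed over Pcdhgb4, Pcdhga8 and Pcdhgb5, the level was 5.45, 4.56 and 4.87 CPM in WT and 1.05, 1.23 and 0.827 CPM in KO, a ratio of 4.78 between means. The trio held 18.1% ± 0.882 of all gamma counts in WT and 5.26% ± 1.65 in KO. It was chosen by its values and this is no further evidence for them. The other gamma B genes did not separate the groups without Pcdhgb4. Leaving out Pcdhgb5 alone gave 4.16 ± 1.15 CPM in WT and 1.95 ± 0.640 CPM in KO without overlap, but leaving out Pcdhgb4 as well gave 3.28, 2.19 and 3.65 CPM in WT and 1.05, 1.54 and 2.26 CPM in KO, where KO replicate 3 lay above WT replicate 2. With Pcdhga8 left out, the other 11 gamma A genes overlapped between groups (13.6 ± 0.532 and 11.6 ± 2.22 CPM). The 20 gamma genes that were not called summed to 24.6, 22.0 and 24.0 CPM in WT and to 21.5, 16.9 and 20.2 CPM in KO, without overlap. With Pcdhgb4 also left out the lowest WT library (21.35 CPM) and the highest KO library (21.31 CPM) were nearly level.

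**Figure D2:**
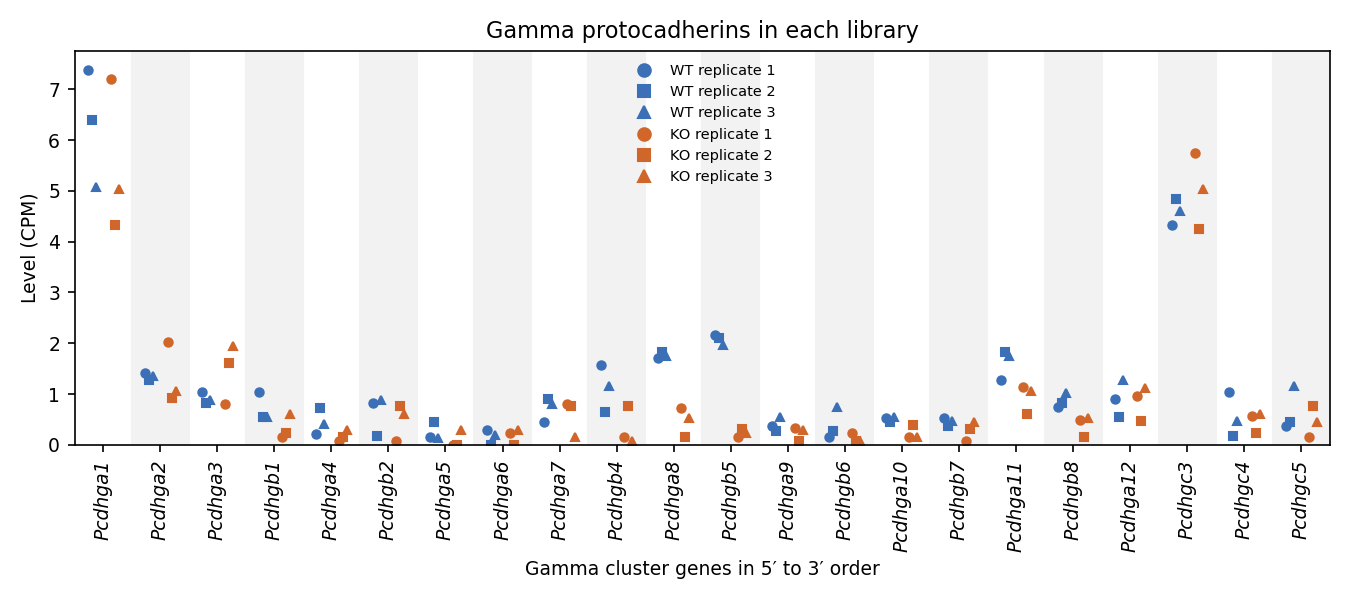
Level in CPM (vertical axis) of each of the 22 gamma genes in their order along the chromosome (horizontal axis), with 1 point per library, blue for WT and orange for KO. Pcdhga1 and Pcdhgc3, near the ends of the cluster, stand above the others in both groups, and the WT points of Pcdhga8 and Pcdhgb5 lie at 1.72 to 2.16 CPM with all KO points at 0.729 CPM or lower.

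The most abundant member was Pcdhga1, the first gamma gene (transcription starts at position 37794846). It had 99, 70 and 75 counts in WT and 89, 56 and 67 in KO, or 7.39, 6.39 and 5.07 CPM and 7.21, 4.32 and 5.04 CPM. The groups overlapped, and the log2 fold change was −0.19 ± 0.24 (95% interval −0.68 to 0.31; adjusted p = 0.657).

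Pcdhgc3, a C-type gene near the end of the cluster, was next, with 58, 53 and 68 counts in WT and 71, 55 and 67 in KO, or 4.33, 4.84 and 4.60 CPM and 5.75, 4.24 and 5.04 CPM. Its groups also overlapped, with a log2 fold change of 0.13 ± 0.23 (95% interval −0.34 to 0.60; adjusted p = 0.762). Together Pcdhga1 and Pcdhgc3 held 39.8% ± 4.37 of the gamma counts in WT and 51.8% ± 5.34 in KO.

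Pcdhga2, the second gamma gene, had 19, 14 and 20 counts in WT and 25, 12 and 14 in KO, or 1.42, 1.28 and 1.35 CPM and 2.03, 0.926 and 1.05 CPM. Its log2 fold change of −0.03 (95% interval −0.86 to 0.81; adjusted p = 0.976) changed sign when any of 3 libraries was left out.

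The other tested gamma genes did not pass the test. The 8 that were tested and not called had log2 fold changes between −1.13 (Pcdhgb8, adjusted p = 0.163) and 0.67 (Pcdhga3, adjusted p = 0.314). Pcdhgb8 had 10, 9 and 15 counts in WT and 6, 2 and 7 in KO, and Pcdhga11 had 17, 20 and 26 in WT and 14, 8 and 14 in KO (−0.78, adjusted p = 0.203). The groups of both did not overlap. In Pcdhga3 the order was turned, with 14, 9 and 13 counts in WT and 10, 21 and 26 in KO, and the groups overlapped. These genes were picked for their values. Of the 10 tested members, 4 had groups that did not overlap, beside 33.7% of all genes tested. Among these 4, Pcdhgb5, Pcdhga8 and Pcdhgb8 passed the filter through WT libraries alone, so the filter bears on this count. Members below the filter without overlap were Pcdhga10 and Pcdha12, with all KO libraries lower, and Pcdhac2, with all KO libraries higher. The share without overlap among all genes below the filter was not computed, and Pcdha12 had only 5 counts in all.

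**Figure D3:**
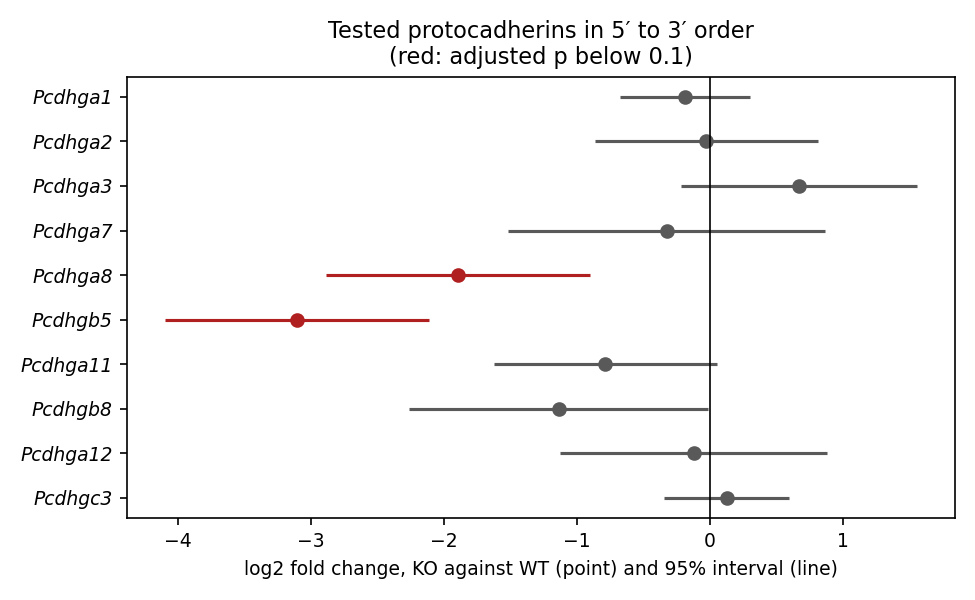
Log2 fold change of KO against WT (horizontal axis) for the 10 members that were tested, in their order along the chromosome, with points for the edgeR estimate and lines for its 95% interval. The intervals of Pcdhgb5 (−4.10 to −2.11) and Pcdhga8 (−2.89 to −0.90), in red, are those of the genes called, and that of Pcdhgb8 ends just short of 0.

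The 12 gamma genes below the filter had between 13 and 58 counts over all 6 libraries, and the mean CPM was lower in KO for 11 of them. Over the whole cluster the KO mean was the lower one for 19 of 22 genes and the higher one for 3, Pcdhga3, Pcdhga6 and Pcdhgc3. Genes of one cluster share libraries and enhancers and are not independent of each other, so no test was made of this count. Among the C-type genes, Pcdhgc4, which is needed for the survival of cortical interneurons, had 14, 2 and 7 counts in WT and 7, 3 and 8 in KO. Pcdhgc5 had 5, 5 and 17 counts in WT and 2, 10 and 6 in KO. In both genes the spread between libraries of a group was as large as any difference between groups.

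Levels of different genes were compared per kilobase of unique exon. In WT EpiLCs Pcdhga1 stood first with 1.94 ± 0.358 CPM per kilobase and Pcdhgc3 second with 1.36 ± 0.0751, each above the next in all libraries. Pcdhga8 (0.701 ± 0.0217), Pcdhga11 (0.611 ± 0.115) and Pcdhga2 (0.513 ± 0.0267) followed, and the ranges of neighbours among these overlapped. Pcdhgb5 was 6th with 0.446 ± 0.0222 CPM per kilobase, below every library of Pcdhga2 and above every library of Pcdhga3. From Pcdhga3 downwards each gene overlapped with the next, and the lowest was Pcdhga6 with 0.0635 ± 0.0579.

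In KO EpiLCs Pcdhga1 (1.70 ± 0.463) and Pcdhgc3 (1.48 ± 0.223) had the highest means, but their libraries overlapped. By its mean Pcdhgb5, at 0.0498 ± 0.0158 CPM per kilobase, was 21st of 22, and Pcdhga8, at 0.186 ± 0.116, was 7th, and both overlapped with the genes next to them in this order. Even the highest members were modest transcripts, since Pcdhga1 was at the 59.9th percentile and Pcdhgc3 at the 55.9th percentile of 21486 protein-coding genes by WT level per kilobase. On the same scale Pcdh1, a protocadherin outside the clusters, stood at 4.91 ± 0.527 in WT.

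**Figure D4:**
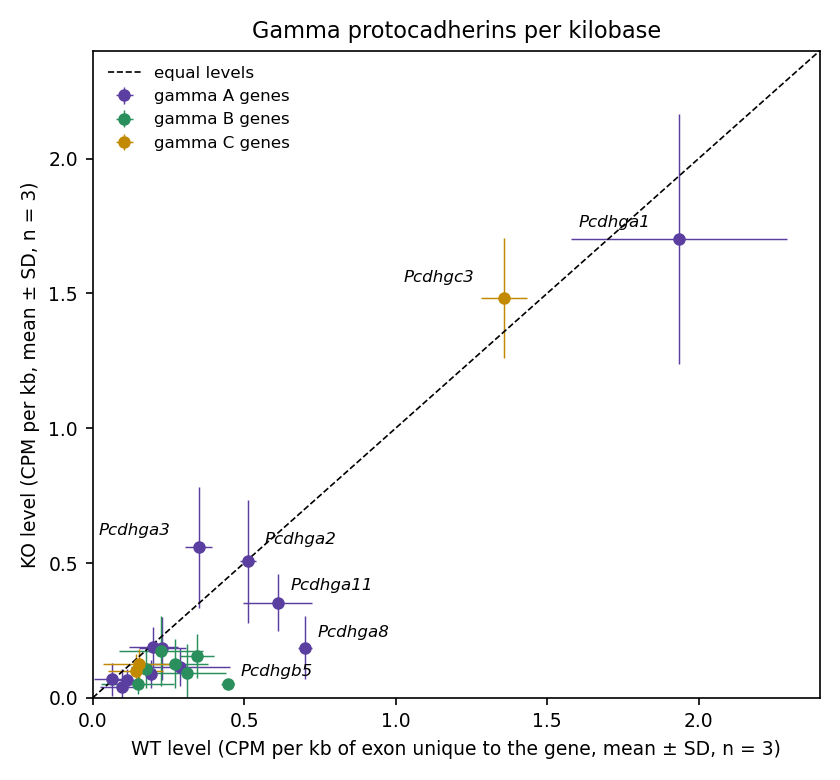
WT level (horizontal axis) against KO level (vertical axis) of the 22 gamma genes, in CPM per kilobase of exon unique to the gene, as means with whiskers of 1 SD (n = 3) and the line of equal levels. Pcdhga1 and Pcdhgc3 lie far from the others near the line, while Pcdhgb5 (0.446 in WT and 0.0498 in KO) and Pcdhga8 (0.701 and 0.186) lie well below it.

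The alpha cluster summed to 0.224, 0.913 and 0.473 CPM in WT and to 0.810, 0.849 and 0.827 CPM in KO, and the groups overlapped. Of its 14 genes, 10 had a count and 4, Pcdha3, Pcdha4, Pcdha5 and Pcdhac1, had none. With no count in 6 libraries, a level of up to 0.0386 CPM over all of them is allowed for each. For Pcdha4 this bears on its 494 unique bases only. Of the 52 alpha counts, 29 came from Pcdhac2, the C-type gene through which serotonergic axons keep apart. It had 1, 2 and 4 counts in WT and 6, 9 and 7 in KO, so that the lowest KO library lay above the highest WT library.

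The ratio of the pooled KO level of Pcdhac2 to that of WT was 3.19 (95% exact interval 1.31 to 8.83, which covers counting error only). It was below the filter, and without one its log2 fold change was 1.62 ± 0.83 with an adjusted p of 0.277, which does not pass. Of the other alpha genes, Pcdha12 had 1, 2 and 2 counts in WT and 0 in each KO library, and Pcdha10 had 0, 4 and 0 counts in WT and 1, 0 and 0 in KO. The 12 alpha genes without the C-type pair summed to 13 counts in WT and 10 in KO.

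The beta cluster summed to 0.299, 0.639 and 0.947 CPM in WT and to 0.810, 0.231 and 0.301 CPM in KO, with groups that overlapped. Of its 22 genes, 13 had a count and 9 had none, and no beta gene had more than 11 counts over the 6 libraries. Pcdhb22 was the highest with 1, 2 and 3 counts in WT and 2, 1 and 2 in KO. Pcdhb14 had 1, 2 and 3 counts in WT and 4, 0 and 0 in KO, and Pcdhb19 had 0, 0 and 5 in WT and 0, 1 and 0 in KO. At this depth no difference between groups was detectable for a beta gene.

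Within the clusters the variable exons resemble each other, and reads that match several genes may not have been counted. Of the stretches of 100 bases in their unique exons, a median of 5.21% per alpha gene and of 0.0829% per beta gene occurred again elsewhere in the locus, and none for the median gamma gene. The share was 1.67% for Pcdhgb5 and 1.53% for Pcdhga8, and it was 0% for Pcdhga1 and Pcdhgc3. It was highest among gamma genes for Pcdhgb2, at 9.74%. How reads with several matches were treated is not given in the sources used here.

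Other transcripts of the locus, picked after their values were seen, were also counted. The noncoding 3222401L13Rik lies on the same strand and ends 51 bases before Pcdhga1. It had 56, 43 and 65 counts in WT and 42, 41 and 33 in KO, with no overlap and a log2 fold change of −0.47 ± 0.26 (adjusted p = 0.233). The noncoding 4930517L18Rik, between the beta and gamma clusters, had 1, 1 and 6 counts in WT and 8, 8 and 35 in KO. It was below the filter, and without one its log2 fold change was 2.64 ± 0.63 (adjusted p = 0.000626), with KO replicate 3 holding most of the KO counts. Gm37165, an antisense gene whose span covers the starts of Pcdhga7, Pcdhgb4 and Pcdhga8, had 5 counts in all. Of these 3 members, Pcdhga7 was tested and not called (−0.32, adjusted p = 0.761). Libraries came from a stranded kit, and 8 of 30 protein-coding genes that lie wholly under exons of the other strand had over 100 counts. Whether counting used the strand is not given in the sources used here.

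Around the clusters, within 500 kb, 33 other protein-coding genes were listed and 23 tested, of which 1 was higher and 5 lower in KO, 6 in all (8 with a replicate block). These 6 are 26.1% of the genes tested here, beside 24.3% of all genes. Wdr55, a gene of ribosome biogenesis, rose by 0.35 on the log2 scale, while Hbegf, a ligand of the EGF receptor, fell by 0.53, Arap3 by 0.90, Tmco6 by 0.44, Gnpda1 by 0.35 and Pcdh1 by 0.31. Taf7, which lies between the beta and gamma clusters, was at 250 ± 32.6 CPM in WT and 297 ± 10.9 CPM in KO (log2 fold change 0.25, adjusted p = 0.105, and 0.0327 with a replicate block). On the rest of chromosome 18, 38 of 381 genes tested were lower and 43 higher, with a median log2 fold change of 0.03. Together these are 21.3% of the genes tested there, beside 24.3% of all genes tested.

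Of the 12 protocadherins outside the clusters, 11 had a count, 4 were tested and 2 were called, too few to set against the 24.3% of all genes. Pcdh8, the paraxial mesoderm protocadherin of the early embryo, was at 5.90, 3.38 and 6.43 CPM in WT and 9.48, 10.1 and 16.4 CPM in KO, and its log2 fold change was 1.18 ± 0.25 (adjusted p = 0.00198). Pcdh1 was at 49.1, 40.5 and 41.5 CPM in WT and at 33.2, 37.8 and 35.1 CPM in KO (−0.31 ± 0.12, adjusted p = 0.0761), and it was not called at a threshold of 0.05. Pcdh18 and Pcdh19 did not pass.

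Among 28 regulators of protocadherin promoters, all of which were tested, 4 were called, 3 higher and 1 lower, and none by as much as 1 on the log2 scale. These are 14.3% of the list, beside 24.3% of all genes tested. The higher genes were Smc3, a cohesin subunit (0.36 ± 0.14, adjusted p = 0.0721), the maintenance methyltransferase Dnmt1 (0.23 ± 0.094, adjusted p = 0.0945) and Tet1 (0.42 ± 0.12, adjusted p = 0.0168), which oxidizes 5-methylcytosine. Tet3, of the same enzyme family as Tet1, fell by 0.34 ± 0.14 (adjusted p = 0.0858), and was not called with DESeq2 (adjusted p = 0.126). Only Tet1 passed a threshold of 0.05. With a replicate block, 9 of the 28 were called, 7 higher and 2 lower. Ctcf, Rad21, Smchd1 and Setdb1 were not called in either fit.

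The cytoplasmic and membrane partners are proteins that bind, cut or act downstream of clustered protocadherins. Of 19 listed, 18 were tested and 7 called, 1 higher and 6 lower, or 38.9% beside 24.3% of all genes tested. Ptk2b, the kinase Pyk2 that the constant tails hold in check, rose by 0.72 ± 0.16. Cyfip2 (−0.62 ± 0.14) and Brk1 (−0.57 ± 0.10) of the WAVE actin regulatory complex, Psen2 of gamma-secretase (−0.58 ± 0.19) and Marcks (−0.46 ± 0.12) were lower. Axin1 was lower by a smaller amount (−0.28 ± 0.11, adjusted p = 0.0939), and was not called with DESeq2 (adjusted p = 0.115). Nlgn2, the neuroligin of inhibitory synapses, was the one partner past 1 on the log2 scale (−1.24 ± 0.22), with 7.83 ± 0.779 CPM in WT and 3.32 ± 0.468 CPM in KO.

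Neural, primitive streak and primitive endoderm markers were also examined. The paper describes Nes and Sox1 as early neural genes with weak expression in EpiLCs, so they do not mark other cells alone. Of 16 neural and neuronal markers, 15 had a count, and they summed to between 148 and 157 CPM in WT and between 107 and 120 CPM in KO. Of the 10 tested, Sox1 (−1.78), Nes (−1.41) and Tubb3 (−0.61) were lower and Neurod1 (0.95) and Ncam1 (0.93) higher. These 5 are 50% of the 10, beside 24.3% of all genes tested. The others tested did not pass, among them Stmn2 (54.5 ± 3.54 CPM in WT and 46.1 ± 5.19 CPM in KO) and Syp (1.09 ± 0.191 and 0.467 ± 0.278 CPM). The groups of Stmn2 and Syp did not overlap, as was so for 33.7% of all genes tested. Elavl3 had a lower mean in KO (2.49 ± 1.04 and 1.70 ± 0.489 CPM). Elavl4 (1.66 ± 0.380 and 2.71 ± 0.995 CPM) and Map2 (6.75 ± 0.599 and 7.31 ± 1.25 CPM) had a higher one. The groups of these genes overlapped. Of the neuronal markers below the filter, Snap25 had 28 counts in WT and 14 in KO, Rbfox3 had 10 and 3, Dcx had 1 and 2, and Neurog2 had 2 and 4. The primitive streak markers summed to between 6.16 and 6.87 CPM in WT and between 9.03 and 12.9 CPM in KO, with Eomes (0.87) called higher. The primitive endoderm markers summed to between 6.11 and 8.06 and between 6.17 and 17.6 CPM, and of the 4 tested Gata6 (1.35, adjusted p = 0.0121) and Pdgfra (0.94, adjusted p = 0.0991) were higher in KO. With 1 streak and 4 endoderm markers tested, these lists are too small to set against the 24.3% of all genes. Any part of the cells that carry these markers, or the naive markers given above, in the lower gamma levels was not tested.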

How the data were processed

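Total RNA of 3 WT and 3 Oct6 KO EpiLC libraries was depleted of ribosomal RNA and sequenced in pairs of reads. The authors used FastQC and Fastp for quality control and trimming, and STAR, run in two-pass mode on GRCm39, for mapping and counting. Their deposited values are raw counts per gene, without normalization. The annotation release, the strand setting and the treatment of ambiguous reads are not given in the sources used here. Of 55416 identifiers, 54749 were found in GENCODE M39 (GRCm39), which gave symbols, positions and the exon bases unique to each gene.

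Counts were tested with edgeR 4.0.16 in R 4.3.3 (TMM, filterByExpr with a minimum count of 10, quasi-likelihood test, genotype as the only term, Benjamini-Hochberg adjustment over 15746 genes, threshold 0.1). Standard errors came from the F statistic. The script was tested on simulated data. Alternatives were DESeq2 1.42.0, RLE factors, library totals, other filters, a threshold of 0.05, a replicate block and each library left out. TMM factors ran from 0.974 to 1.02. With 10995505 to 14680930 counts per library, counting error is large for genes with few counts.

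By rule, members named with values were those called, the 3 most abundant of each cluster and the C-type genes, beside Pou3f1, and called genes of the lists could be named. Pcdhgb4, Pcdhgb8, Pcdhga11, Pcdhga3 and some genes of the locus and of the marker lists were added after their values were seen. Members and lists were chosen with earlier results of these data known. The design text of the series describes the replicates as paired. Deviations from the group means correlated between 0.101 and 0.252 across genes for libraries with the same number and between −0.195 and −0.0193 for others. For each gene the deviations within a group cancel out, so these ranges are not independent of each other. Libraries were not copies of each other (chi-square per degree of freedom 6.31 to 10.6).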

Additional observations from a re-analysis of the deposited data

How the results depend on the processing

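The 2 members called lower, Pcdhgb5 and Pcdhga8, were called with DESeq2, RLE factors, library totals, no filter, an adjusted p below 0.05 and a replicate block, and the number of members lower was 2 or 3 with each library left out. With the replicate block the number was 2, and the pairing changed no call among the members. With at least 10 counts in every library 0 members were called lower, and 0 with a log2 fold change of at least 1, because neither gene is then tested. No alternative called a member higher. The estimate for Pcdhga2 turned to 0.008186 without WT replicate 1, 0.18 without KO replicate 2 and 0.12 without KO replicate 3 (range −0.45 to 0.18).

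Of the regulators, 4 were called, 9 with the replicate block, 2 with library totals alone, 2 without a filter, 1 at an adjusted p below 0.05 and 1 to 6 with a library left out, 1 without WT replicate 1 or KO replicate 1 and 2 without WT replicate 2, KO replicate 2 or KO replicate 3. Of the protocadherins outside the clusters, 2 were called, and 1 without a filter, with DESeq2 and the replicate block, at an adjusted p below 0.05, and without WT replicate 1, KO replicate 1 or KO replicate 3 (range 1 to 2). Of the genes around the clusters, 6 were called and 2 to 5 with a library left out, 3 without KO replicate 1 and 2 without KO replicate 2, and 8 with the replicate block, which added Taf7 and Diaph1. Of the partners, 7 were called, 8 with the replicate block, 6 with DESeq2, 5 with DESeq2 and the replicate block and 5 to 7 with a library left out. With a library left out, the summed CPM of KO minus WT ran from −8.29 to −5.77 for gamma, from 0.13 to 0.48 for alpha and from −0.36 to −0.022 for beta. Except as stated, the causes were not tested. Depth limits all alpha and beta genes, for which at most 29 and 11 counts were available per gene.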
